A study of Mus musculus with 6 samples.

Results

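The genes described here make cholesterol and fatty acids, regulate that synthesis, or export and esterify the sterol made. They were listed by name, 33 in all, and each was measured in peripherally induced regulatory T (pTreg) cells with and without the transcription factor Blimp1. The whole table held 45281 probes, which name 19057 genes. Named probes were found for 29 of the 33 genes, and 22 of these were above background on at least 2 arrays and were tested among 9567 genes. Each gene is given by its brightest probe, the one with the highest mean over the 6 arrays. Hmgcs1, Fdft1, Nr1h2 and Soat1 were not analysed here, since the annotation used here names no probe for them.

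Blimp1-deficient (CKO) cells came from C57BL/6 Prdm1 flox/flox mice with CD4-Cre, and Blimp1-sufficient (Ctrl) cells from Prdm1+/+ mice that carried CD4-Cre as well. Donors of both genotypes carried a Foxp3-GFP reporter, and the ages of the mice are not in the labels. CD4-Cre acts in developing T cells, so Prdm1 was already deleted in the naive cells and not from the Treg stage on. Naive CD4+ cells pooled from lymph nodes and spleen, marked by Thy1.2 (CKO) or Thy1.1 (Ctrl), were transferred together into RAG1-deficient hosts, which have no T or B cells of their own. CD4+ Foxp3-GFP+ cells were sorted from these hosts weeks later. The methods call the 3 samples of each genotype biological replicates, and the labels do not say how many hosts each one holds. The labels call the cells peripheral Treg in 1 field and iTreg in another, and the name pTreg is the one the study uses. The labels give the letters P+I for replicates 2 and 3 and no stimulus for replicate 1. Replicate 1 of both genotypes lay on 1 slide and replicates 2 and 3 on a second.

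Cholesterol is built from acetyl-CoA through mevalonate, isoprenoid diphosphates, squalene and lanosterol. The transcription factors SREBP1 and SREBP2 turn the pathway on: SCAP escorts them from the endoplasmic reticulum to the Golgi when sterols are scarce, and the INSIG proteins hold them back when sterols are plentiful. SREBP1 favours the fatty acid genes and SREBP2 the sterol genes, and in lymphocytes both branches supply membrane for dividing cells. Nuclear LXR receptors turn on sterol export.

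SREBP proteins act at promoters together with the factor NF-Y, which binds the letters CCAAT. Of the 33 genes, 27 had promoter windows in the RefSeq table (GRCm38.p6), each with 250 bases before and 50 after a start. CCAAT was found on either strand in a window of 22 of the 27 genes (81.5%), against 41.1% of all 27025 genes in the table. The sterol element letters TCACNCCAC, searched on both strands, were found for 1 of the 27, Hmgcs1, and for 1.44% of all genes. The letters GNGAAAGNG, the core of the element that Blimp1 binds, were found on either strand for 3 of the 27 (11.1%, Abca1, Dhcr7 and Insig2) and for 8.49% of all genes. A gene with several windows was counted if any of them matched, and a match is a description of letters and not a bound site. The windows of 5 genes are shown as examples, and no result below rests on them. Mvk and Mvd had lower values in CKO than in Ctrl cells. For Lss, Nsdhl and Hsd17b7, as for most tested genes, the range of replicate means exceeded the genotype difference. Srebf1, lower in CKO as well, and Dhcr7, with a wide replicate range, are not shown. The windows read 5′ to 3′ on the strand of the gene, and capitals mark CCAAT, or ATTGG where the match lies on the other strand.
Mvk (chr5:114444019-114444318, plus strand): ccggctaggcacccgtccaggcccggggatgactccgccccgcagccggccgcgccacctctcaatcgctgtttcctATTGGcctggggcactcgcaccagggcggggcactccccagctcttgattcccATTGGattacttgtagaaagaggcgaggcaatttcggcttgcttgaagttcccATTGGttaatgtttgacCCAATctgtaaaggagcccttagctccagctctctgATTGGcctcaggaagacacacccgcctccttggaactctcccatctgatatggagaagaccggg
Mvd (chr8:122443373-122443672, minus strand): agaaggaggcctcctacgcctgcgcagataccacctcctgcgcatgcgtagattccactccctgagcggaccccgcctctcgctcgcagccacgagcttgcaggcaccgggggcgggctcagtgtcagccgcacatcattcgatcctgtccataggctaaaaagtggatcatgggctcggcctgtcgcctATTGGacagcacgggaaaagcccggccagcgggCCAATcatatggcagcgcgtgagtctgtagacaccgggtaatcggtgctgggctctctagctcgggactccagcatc
Lss (chr10:76531355-76531654, plus strand): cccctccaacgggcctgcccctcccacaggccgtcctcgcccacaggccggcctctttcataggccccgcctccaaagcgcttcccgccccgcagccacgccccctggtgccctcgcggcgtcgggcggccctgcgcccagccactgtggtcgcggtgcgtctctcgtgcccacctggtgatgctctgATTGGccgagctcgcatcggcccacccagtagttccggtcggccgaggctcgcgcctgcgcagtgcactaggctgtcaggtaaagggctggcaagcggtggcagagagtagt
Nsdhl (chrX:72918271-72918570, plus strand): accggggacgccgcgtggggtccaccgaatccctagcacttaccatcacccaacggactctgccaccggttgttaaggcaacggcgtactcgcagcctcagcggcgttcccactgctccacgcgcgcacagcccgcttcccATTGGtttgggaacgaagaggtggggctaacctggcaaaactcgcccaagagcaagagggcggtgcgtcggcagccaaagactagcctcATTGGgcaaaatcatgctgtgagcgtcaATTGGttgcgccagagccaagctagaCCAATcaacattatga
Hsd17b7 (chr1:169969156-169969455, minus strand): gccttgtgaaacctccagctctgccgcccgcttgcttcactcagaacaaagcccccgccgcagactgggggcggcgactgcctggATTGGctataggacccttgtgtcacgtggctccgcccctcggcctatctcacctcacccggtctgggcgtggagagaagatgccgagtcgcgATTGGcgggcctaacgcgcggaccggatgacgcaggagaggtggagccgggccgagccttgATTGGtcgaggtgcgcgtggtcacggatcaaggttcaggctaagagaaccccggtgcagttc
CCAAT stood 5 times in the Mvk window, 4 times in that of Nsdhl, 3 times in that of Hsd17b7, 2 times in that of Mvd and 1 time in that of Lss.

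Prdm1, the gene of Blimp1, had normalized intensities of 561, 341 and 704 in CKO replicates 1, 2 and 3, against 18.9, 50.9 and 49.2 in Ctrl replicates 1, 2 and 3. Its probe was thus brighter in the cells labelled as deleted. The sources used here do not place that probe inside or outside the deleted part, and its level is therefore no check of the deletion. Il10, the cytokine Blimp1 is known to promote in Treg cells, had 128, 99.2 and 106 in CKO and 5935, 3203 and 5904 in Ctrl replicates, and Foxp3 had 433, 165 and 216 in CKO and 480, 212 and 141 in Ctrl replicates. Background on each array was the level below which 95% of 1506 probes for olfactory and vomeronasal receptors lay, an intensity of 6.17 to 9.51. All 9 T cell and Treg markers were above background on all 6 arrays, Foxp3 and Cd3e among them. Their summed intensity ran from 12386 to 15551 in CKO and from 21561 to 27246 in Ctrl cells. The groups did not overlap for Ctla4 (mean 3349 in CKO and 7264 in Ctrl), Tnfrsf18 (1575 and 3817) and Ikzf2 (286 and 713). They overlapped for Cd3d, Cd3e, Cd3g, Cd4, Foxp3 and Il2ra. Of 8 myeloid markers with a probe 5 were above background on at least 2 arrays, and their summed intensity was 12303, 1644 and 22056 in CKO replicates 1, 2 and 3 and 22535, 2440 and 31488 in the Ctrl replicates. S100a8 and S100a9, abundant in neutrophils, made up most of it, while Itgam and Emr1 were not above background on any array. Of 5 adipocyte markers Fabp4, Plin1 and Cidec were above background on no array, and Adipoq and Lep on 2 each. Of 5 epithelial markers Epcam was above it on no array and the other 4 on 2 to 4 arrays, the brightest being Krt8 at 24.6 in CKO and 62.1 in Ctrl replicate 3. Of 2 B cell markers with a probe Ms4a1 was above background on 3 arrays and Cd79b on 1. Cd8b1, at 544 to 934 in CKO and 656 to 1031 in Ctrl cells, and the globin gene Hba-a1, at 557 to 1629 in CKO and 531 to 1858 in Ctrl cells, were above background on all 6 arrays and highest in replicate 3 of both genotypes, while Cd8a, Ncr1 and Klrb1c were above it on none. Where a transcript is lower in such bulk samples, fewer expressing cells and less RNA per cell cannot be told apart. The labels do not say which steps, the transfer among them, were kept apart for each sample, so p-values measure the spread between these samples.

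None of the 22 tested genes passed an adjusted p of 0.05 in limma, where 0.272% of all genes did (0.115% higher and 0.157% lower in CKO). At an unadjusted p under 0.05 there was 1 gene of the 22, Mvk, and 8.07% of all genes. Mvk also met the thresholds that the study used, at least 1.5-fold at an unadjusted p under 0.05, which 7.44% of all genes met (3.07% higher and 4.37% lower in CKO). The smallest adjusted p among the 22 genes was 0.39. The groups did not overlap for 3 genes, Srebf1, Mvk and Mvd, all lower in CKO, beside 7.13% of all genes with no overlap toward lower and 5.96% toward higher values. These 3 of 22 are a description, and none of the 3 differed beyond the adjusted threshold. The median log2 fold change of CKO over Ctrl was -0.08 over the 22 genes, of which 13 were negative and 9 positive, against 0.02 over all genes. By step it was -0.49 over 5 mevalonate and isoprenoid genes, -0.08 over 8 squalene and sterol genes, 0.00 over 5 SREBP regulators and 0.22 over 4 fatty acid genes.

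**Figure D1:**
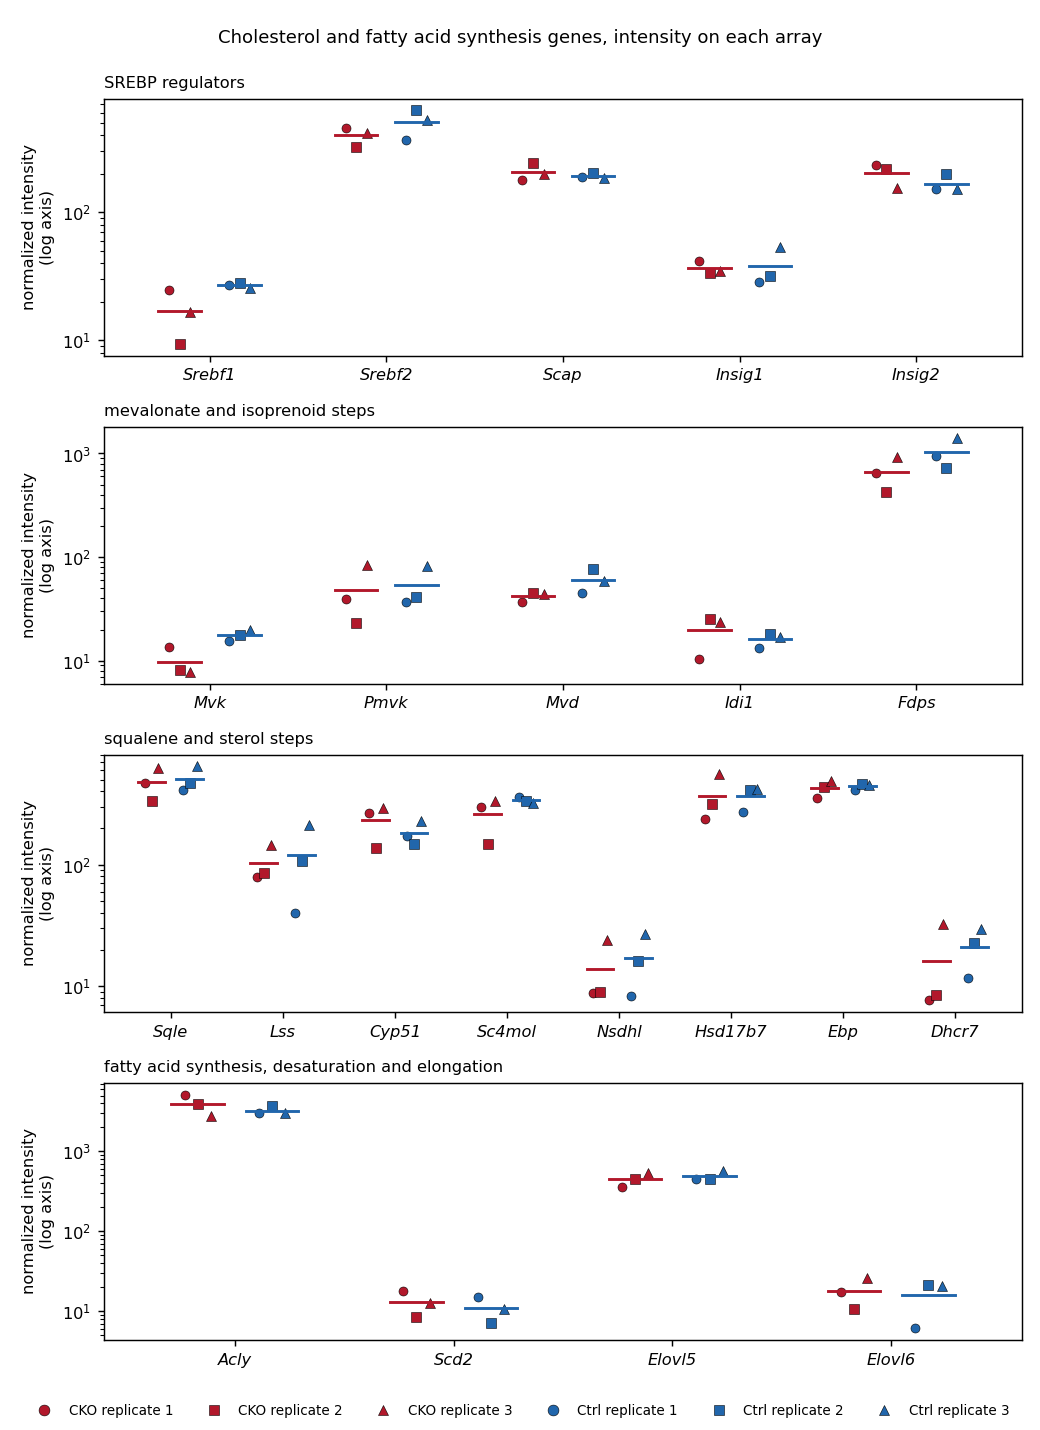
Normalized intensity (log axis) of the 22 tested genes on each array, in panels by pathway step, with CKO left and Ctrl right within each gene. Each point is an array, its shape gives the replicate, and the bars are means of 3 arrays; the groups are apart for Srebf1, Mvk and Mvd and overlap for the other 19 genes.

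Among the SREBP regulators, Srebf1, the gene of SREBP1, had intensities of 24.7, 9.35 and 16.7 in CKO replicates 1, 2 and 3 and of 27.2, 28.3 and 25.7 in the Ctrl replicates. Every CKO value lay below every Ctrl value, by the narrowest margin in replicate 1. The difference was a log2 fold change of -0.79 (standard error, SE, 0.35), with an adjusted p of 0.64 from limma, and its 95% interval of 0.33 to 1.02 for the ratio of CKO to Ctrl reached 1. In the pairs of replicates 1, 2 and 3 the log2 fold changes were -0.14, -1.60 and -0.62. The value of CKO replicate 2 lay just above that array's background of 9.14. Without both arrays of replicate 2 the log2 fold change of Srebf1 was -0.38. Srebf2, which encodes SREBP2, had 459, 322 and 415 in CKO and 367, 627 and 526 in Ctrl replicates 1, 2 and 3. CKO was the higher array in replicate 1 and the lower one in replicates 2 and 3. Its log2 fold change was -0.33 (SE 0.28), and the interval of the ratio ran from 0.51 to 1.24. Another Srebf2 probe, above background on all 6 arrays, had 62.9, 74.1 and 84.9 in CKO and 68.6, 79.6 and 88.7 in Ctrl replicates. Its log2 fold change was -0.10 (SE 0.24).

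Scap, the escort of SREBP, had 178, 241 and 199 in CKO and 189, 201 and 185 in Ctrl replicates 1, 2 and 3. Its groups overlapped, with a log2 fold change of 0.09 (SE 0.22) and a ratio between 0.75 and 1.52. Another Scap probe had a log2 fold change of -0.52 (SE 0.47). Insig1, itself a target of SREBP in many cells, had 41.6, 33.8 and 34.9 in CKO and 28.6, 31.6 and 54.1 in Ctrl replicates. Ctrl held both its highest and its lowest arrays, and the log2 fold change was 0.00 (SE 0.29). A pair of further Insig1 probes above background gave log2 fold changes of -0.30 (SE 0.32) and -0.29 (SE 0.30). Insig2 had 233, 220 and 156 in CKO and 152, 198 and 153 in Ctrl replicates, a log2 fold change of 0.26 (SE 0.25). CKO was higher in all 3 pairs, by only 0.03 on the log2 scale in replicate 3, and another Insig2 probe had a log2 fold change of -0.13 (SE 0.28).

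The mevalonate and isoprenoid genes had the lowest median of the 4 steps with tested genes. Mvk encodes mevalonate kinase, which adds the first phosphate to mevalonate. Its intensities were 13.5, 8.20 and 7.76 in CKO replicates 1, 2 and 3 and 15.6, 17.6 and 19.8 in Ctrl replicates 1, 2 and 3. The groups did not overlap, and only 1 of the 3 CKO arrays, replicate 1, was above background, so the size of the difference rests on the background level. The log2 fold change was -0.77 (SE 0.25), with an unadjusted p of 0.016 and an adjusted p of 0.39 from limma, and -0.21, -0.94 and -1.15 in the 3 pairs. With background at the 99th percentile of the receptor probes the log2 fold change of Mvk was -0.29 and its adjusted p 0.81.

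Mvd encodes the decarboxylase that yields isopentenyl diphosphate. It had 37.2, 45.1 and 44.2 in CKO and 45.5, 76.2 and 59.1 in Ctrl replicates 1, 2 and 3, and the highest CKO array lay just under the lowest Ctrl array. The log2 fold change was -0.49 (SE 0.26, adjusted p = 0.73 from limma), negative in all 3 pairs at -0.29, -0.76 and -0.42. Fdps, farnesyl diphosphate synthase, stands where the sterol branch parts from protein prenylation. It had 648, 423 and 920 in CKO and 955, 719 and 1399 in Ctrl replicates 1, 2 and 3. The groups overlapped because replicate 3 was the brightest of both genotypes, while within each pair CKO was lower. The pairs gave log2 fold changes of -0.56, -0.76 and -0.61, and the log2 fold change of the fit was -0.64 (SE 0.36, adjusted p = 0.76 from limma). A second Fdps probe had a log2 fold change of -0.71 (SE 0.37).

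Srebf1, Mvk, Mvd and Fdps were lower in CKO in all 3 pairs, as were 18.2% of all genes, and Insig2 was higher in all 3, as were 19.5%. These percentages include genes with both arrays of a pair at background, where the sign is only that of the difference between the backgrounds of these arrays. Scd2 was such a gene in replicate 2 and was higher in CKO in the pairs of replicates 1 and 3. With the replicate number as a block, 3 of the 22 genes met the study's thresholds, where 12.1% of all genes did, all 3 lower in CKO. These were Fdps (unadjusted p = 0.010, adjusted p = 0.15 from limma with the block), Mvk (0.014 and 0.18) and Srebf1 (0.031 and 0.25). None of the 22 passed the adjusted p in that fit, which 1.91% of all genes did.

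The remaining genes of this branch were lower in CKO in some pairs and higher in others. Pmvk, phosphomevalonate kinase, had 39.1, 23.1 and 83.2 in CKO and 36.5, 40.9 and 82.6 in Ctrl replicates 1, 2 and 3, so that replicate 3 stood above the others in both genotypes. Its log2 fold change was -0.24 (SE 0.51). Idi1, the isomerase of isopentenyl diphosphate, had 10.5, 25.2 and 23.5 in CKO and 13.2, 18.3 and 16.9 in Ctrl replicates. CKO was lower in replicate 1 and higher in replicates 2 and 3, for a log2 fold change of 0.20 (SE 0.36).

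**Figure D2:**
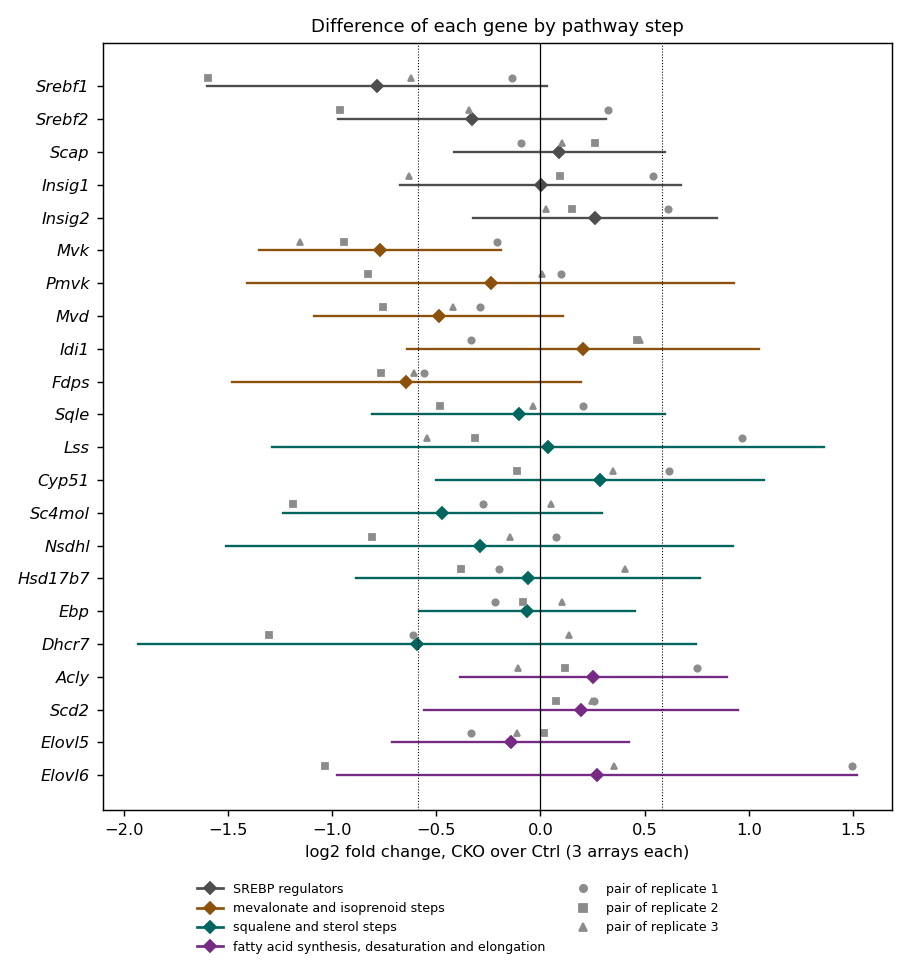
Log2 fold change of CKO over Ctrl for the 22 tested genes in pathway order, as the limma estimate (diamond) with its 95% interval (line) and the 3 replicate pairs (grey). Dotted lines mark 1.5-fold; the interval of Mvk alone stays off 0, and 10 intervals lie within 2-fold either way.

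In the squalene and sterol steps the groups overlapped for all 8 tested genes. Sqle, squalene epoxidase, which commits squalene to sterols, had 473, 335 and 627 in CKO and 410, 468 and 642 in Ctrl replicates 1, 2 and 3. Its log2 fold change was -0.10 (SE 0.30). A second Sqle probe above background on all 6 arrays gave 93.4, 41.0 and 86.5 in CKO against 54.6, 22.4 and 40.2 in Ctrl replicates, a log2 fold change of 0.92 (SE 0.43). The 2 probes of this gene thus differed in sign, and the second one was brighter in CKO within every pair (adjusted p = 0.70 from limma over all probes).

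Lss, which closes the rings of lanosterol, had 78.6, 85.5 and 146 in CKO and 40.2, 106 and 213 in Ctrl replicates 1, 2 and 3. Ctrl held the lowest and the highest array, and the interval of the CKO to Ctrl ratio was wide, from 0.41 to 2.57. Cyp51, the lanosterol demethylase, had 265, 137 and 291 in CKO and 173, 148 and 228 in Ctrl replicates, a log2 fold change of 0.28 (SE 0.34). Sc4mol, the methylsterol oxidase now named Msmo1, had 299, 147 and 333 in CKO and 361, 335 and 322 in Ctrl replicates. CKO replicate 2 stood below the other 5 arrays, and the log2 fold change of -0.47 (SE 0.33) became -0.10 without it.

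Nsdhl, a sterol dehydrogenase, had 8.74, 9.00 and 24.1 in CKO and 8.28, 16 and 26.7 in Ctrl replicates 1, 2 and 3. Dhcr7, the reductase of the last step to cholesterol, had 7.65, 8.40 and 32.2 in CKO and 11.7, 22.5 and 29.3 in Ctrl replicates. For both genes CKO replicate 2 was not above background, and replicate 3 of each genotype was the highest. Their log2 fold changes were -0.29 (SE 0.53) and -0.59 (SE 0.58). Without CKO replicate 3 the log2 fold change of Dhcr7 was -1.24 and its adjusted p 0.50 from limma. Hsd17b7, a sterol ketoreductase, had 236, 317 and 557 in CKO and 272, 413 and 421 in Ctrl replicates, a log2 fold change of -0.06 (SE 0.36). Ebp, the sterol isomerase, had 354, 437 and 488 in CKO and 411, 463 and 454 in Ctrl replicates. Its ratio of CKO to Ctrl, between 0.67 and 1.37, was the only 1 of the 22 whose 95% interval lay within 1.5-fold either way. Tm7sf2, a sterol reductase, was above background on CKO replicate 1 alone, at 10.5, and Sc5d, a sterol desaturase, on no array. These genes were not tested.

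The spread between replicates was set beside the difference between genotypes. The range of the 3 replicate means, each over a CKO and a Ctrl array, exceeded the genotype difference on the log2 scale for 19 of the 22 genes (86.4%), and for 78.8% of all genes. A range of 3 means tends to exceed a single difference even in pure noise, so this count does not show which differed more. By the brightest probe of each gene, replicate 3 was the highest for 7 of the 8 tested squalene and sterol genes, the exception being Sc4mol. It was the highest for 13 of all 22, against 40.0% of all genes. The second Sqle probe was highest in replicate 1 of both genotypes, at 93.4 in CKO and 54.6 in Ctrl cells. From lowest to highest replicate the mean of Dhcr7 changed 3.25-fold, that of Lss 3.14-fold, that of Nsdhl 2.98-fold and that of Pmvk 2.70-fold. In a fit with genotype and replicate, limma gave an unadjusted p under 0.05 between replicates for 9 of the 22 genes, where 25.8% of all genes had one. None of the 22 passed the adjusted p, as 3.22% of all genes did, and the smallest was 0.057 for Nsdhl by its brightest probe. This test was chosen after the values were seen. The other Nsdhl probes differed. One was also highest in replicate 3, at 25.8 in CKO and 22.7 in Ctrl cells. Another had 12.4, 10.1 and 6.83 in CKO and 7.71, 9.92 and 20.9 in Ctrl replicates 1, 2 and 3. A further probe, above background on 2 arrays, had 8.74, 4.88 and 6.41 in CKO and 7.22, 5.23 and 5.60 in Ctrl replicates. Replicate, day and, for replicate 1, slide and label of stimulation cannot be told apart. The summed myeloid markers were highest in replicate 3 as well, lowest in replicate 2 and between these in replicate 1, whereas replicate 1 was the lowest for 5 of the 8 squalene and sterol genes and replicate 2 for 3. That order of the sum is the order of S100a8 and S100a9. Of the other myeloid markers, Lyz2 and Cd14 were highest in replicate 1 of both genotypes, and Csf1r was lowest in replicate 1 of both. Cd8b1 and Hba-a1 were highest in replicate 3 too. The part of these markers in the replicate differences was not tested.

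**Figure D3:**
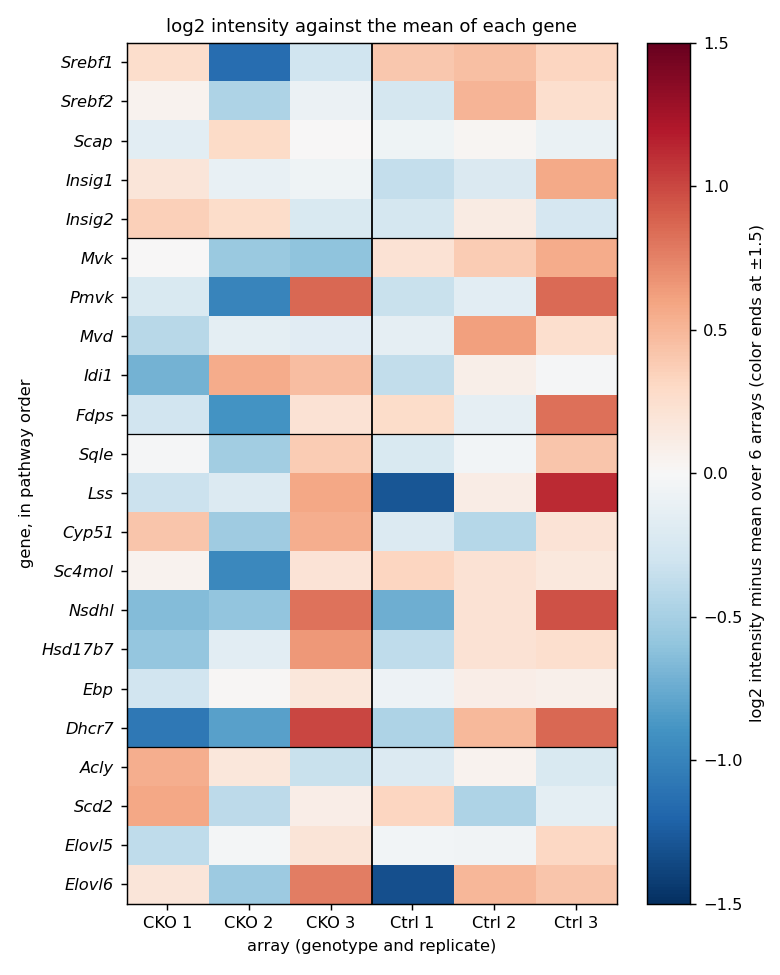
Log2 intensity of each tested gene on each array minus its mean over the 6 arrays, with the CKO arrays left and the Ctrl arrays right of the line and genes in pathway order. The column of replicate 3 is red for Nsdhl, Dhcr7, Lss and Pmvk in both genotypes, while Mvk and Mvd are lower in the CKO arrays.

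Of 7 genes of fatty acid synthesis, 4 were tested. Acly, which makes cytosolic acetyl-CoA from citrate and so feeds both branches, had 5150, 3977 and 2791 in CKO and 3056, 3668 and 3004 in Ctrl replicates 1, 2 and 3. CKO was higher in replicates 1 and 2 and lower in replicate 3, and the log2 fold change was 0.25 (SE 0.28). Elovl5, an elongase of polyunsaturated fatty acids, had 356, 454 and 531 in CKO and 449, 449 and 573 in Ctrl replicates. Its groups overlapped, with a log2 fold change of -0.14 (SE 0.25).

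Elovl6, the elongase of saturated chains, had 17.4, 10.6 and 26.3 in CKO and 6.12, 21.6 and 20.5 in Ctrl replicates 1, 2 and 3, with Ctrl replicate 1 at background. Its pairs ran from -1.03 to 1.49 on the log2 scale, the widest span of the 22 genes. Scd2, a desaturase that makes monounsaturated chains, had 18.0, 8.41 and 12.8 in CKO and 15.0, 7.07 and 10.8 in Ctrl replicates. Replicate 2 of both genotypes was not above background, and the log2 fold change was 0.19 (SE 0.33). The probes of Acaca, Fasn and Scd1, which encode acetyl-CoA carboxylase, fatty acid synthase and the paralog of Scd2, were not above background on any array. Each of them is measured by 1 probe, so the array says little about these transcripts.

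Of the export and esterification genes none could be tested. Abca1, a sterol exporter turned on by LXR, was not above background on any array, with intensities between -8.90 and 0.49. Abcg1, a second exporter, had 9.51 on Ctrl replicate 1, above that array's background of 6.17, and was not above background on the other 5.

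Further lipid genes were grouped by function into lists chosen with earlier results of these data known. None of 62 tested genes in 5 lists passed an adjusted p of 0.05 in limma, while 9 had an unadjusted p under 0.05 and met the study's thresholds, all 9 lower in CKO, where 4.37% of all genes met them toward lower values. Of 9 tested genes of sterol uptake, further synthesis and SREBP processing, 2 met the thresholds, Npc2 and Lipa. Both act in the lysosome, where Lipa frees cholesterol from its esters and Npc2 passes it on. Npc2 had 101, 90.3 and 161 in CKO and 196, 207 and 270 in Ctrl replicates 1, 2 and 3, and Lipa had 43.1, 52.9 and 46.7 in CKO and 66.0, 151 and 73.2 in Ctrl replicates. The CKO arrays lay below the Ctrl arrays for both genes, with log2 fold changes of -0.96 (SE 0.29, adjusted p = 0.32 from limma) and -0.93 (SE 0.34, adjusted p = 0.48).

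Of 18 tested genes of fatty acid activation, desaturation and glycerolipid synthesis, 3 met the thresholds. Dgat1, which makes triglyceride, had 94.1, 59.7 and 31.6 in CKO and 194, 156 and 114 in Ctrl replicates 1, 2 and 3, with no overlap. Its log2 fold change was -1.43 (SE 0.41, adjusted p = 0.31 from limma). The fit with the replicate block gave Dgat1 an adjusted p of 0.033. Acss2, which makes acetyl-CoA from acetate, had 14.7, 9.68 and 16.9 in CKO and 30.3, 37.2 and 25.3 in Ctrl replicates, a log2 fold change of -1.19 (SE 0.29, adjusted p = 0.21 from limma). Without the filter on dim genes the adjusted p was 0.0498 for Acss2 and 0.059 for Dgat1. With log2(value + 16) the log2 fold changes were -0.66 for Acss2 and -1.19 for Dgat1, with adjusted p-values of 0.32 and 0.19 from limma. Leaving out any single array gave adjusted p-values of 0.26 to 0.43 for Acss2 and 0.32 to 0.56 for Dgat1. Plin2, which coats lipid droplets, had 4.37, 5.73 and 5.93 in CKO replicates 1, 2 and 3, all at background, and 26.7, 4.05 and 29.5 in the Ctrl replicates, with replicate 2 at background. Its fitted log2 fold change was -1.16 (SE 0.45, adjusted p = 0.52 from limma), which rests on 2 Ctrl arrays and on the background levels of the other 4. The summed myeloid markers were 22535 and 31488 on those 2 Ctrl arrays, and 12303 and 22056 on CKO replicates 1 and 3, where Plin2 was at background. The part of myeloid cells in Plin2, Npc2 and Lipa was not tested.

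Of 10 tested genes of LXR, oxysterols and cholesterol esters, 2 met the thresholds. Rxra, the partner receptor of LXR, had a log2 fold change of -1.09 (SE 0.37), and Abca7, a lipid transporter, one of -0.82 (SE 0.24). Rxra had 13.2, 14.0 and 8.38 in CKO and 17.1, 42.7 and 21.7 in Ctrl replicates 1, 2 and 3, with CKO replicate 3 under background. With log2(value + 16) the log2 fold change of Rxra was -0.59. Of 15 tested genes of fatty acid oxidation, 2 met the thresholds. Ech1, an isomerase of that pathway, had 492, 348 and 456 in CKO and 861, 691 and 769 in Ctrl replicates, and Hadha, a subunit of the trifunctional protein, had 13.5, 12.2 and 13.1 in CKO and 21.4, 18.2 and 20.3 in Ctrl replicates. Adjusted p-values of these 4 genes lay between 0.29 and 0.42 in limma. Of 10 tested genes of isoprenoid branches and protein prenylation none met the thresholds, and their median log2 fold change was 0.06. The medians of the other lists lay between -0.14 for sterol uptake and 0.11 for fatty acid oxidation.

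**Figure D4:**
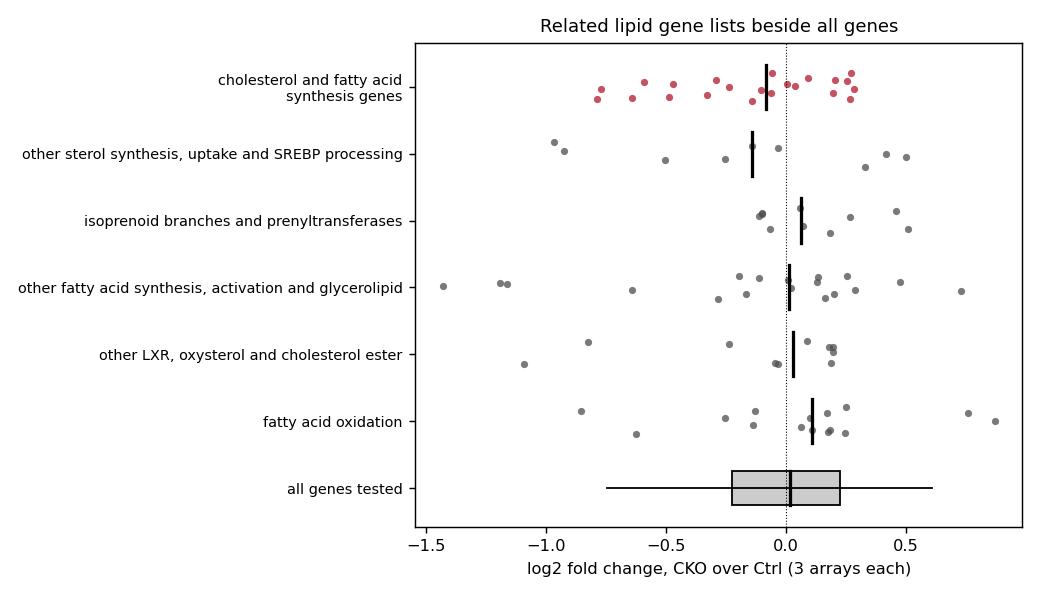
Log2 fold change of CKO over Ctrl for the 22 cholesterol and fatty acid synthesis genes (red) and for 5 lists of related lipid genes (grey), with black bars at the medians. The box at the bottom spans the quartiles of all 9567 genes tested and its line the 5th to the 95th percentile; Dgat1, Acss2 and Plin2 lie lowest among the lipid genes.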

How the data were processed

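Total RNA of 6 sorted samples, 3 of each genotype, was amplified and hybridized to Illumina MouseWG 6v2 bead arrays. The authors exported the intensities from Genome Studio, subtracted background and applied quantile normalization, and the deposited intensity values are linear, with 35.4% to 36.0% of them below 0. Sorted values were alike within a slide and differed between slides, so the intensities were quantile normalized again over the 6 arrays. Detection p-values were not used here. Values under each array's background were raised to it before log2 was taken, and 32.4% to 38.3% of probes lay above it. The number of arrays limits the precision. Probes were named from the platform annotation: 34885 of them have 1 symbol, 18 several and 10378 none, and 34807 symbols were checked against RefSeq by gene identifier.

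Each gene was tested once, by its brightest probe, where that was above background on at least 2 arrays, with lmFit and eBayes of limma 3.58.1 in R 4.3.3, no block, and Benjamini-Hochberg adjustment over 9567 genes. The scripts were tested on simulated data. Fold changes of low genes are understated, since values stop at background. Replicate numbers 2 and 3 each mark a shared day in the labels, and number 1 a shared slide. Same-numbered arrays deviated together, with correlations of 0.51, 0.49 and 0.56 across genes, so a fit with the replicate as a block was made as well. Members, related lists and markers were chosen with earlier results of these data known. The text names all 33 genes, from each related list the genes past the adjusted p and up to 6 at the study's thresholds, and Prdm1, Il10 and Foxp3 as checks. Srebf2, Scap, Insig1, Insig2, Sqle, Fdps and Nsdhl probes beyond the brightest were chosen after their values were seen. Alternatives were another normalization, background level, filter, pseudocount of 16, probe rule or block, and leaving out arrays.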

Additional observations from a re-analysis of the deposited data

How the results depend on the processing

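None of the cholesterol and fatty acid synthesis genes passed an adjusted p of 0.05 under any of 15 alternatives or of 3 chosen after seeing the data. The count over all genes, 26, was 183 with the replicate block (pairing), 16 with the slide as block, 43 with log2(value + 16) and 154 without a filter on dim genes, and 0 to 14 when arrays were left out. The count of these genes at the study's thresholds, 1, was 3 with the replicate block, 2 with the slide block, 2 without a filter, 0 to 2 when arrays were left out, and 0 with background at the 99th percentile, with log2(value + 16) or with genes above background on all 6 arrays, a filter that Mvk does not pass. The share of all genes at these thresholds moved too, from 7.44% with no block to 12.1% with the replicate block. It is not given here for the other settings, so these counts do not show a change particular to these genes. Leaving out both arrays of replicate 1, 2 or 3 gave 0, 1 and 0 calls over all genes and 2, 0 and 0 at the study's thresholds. The median of the squalene and sterol steps lay between -0.36 without CKO replicate 3 and 0.065 without Ctrl replicate 3. The causes were not tested. Of 391 values of single genes under these alternatives, 353 kept their direction and 38 did not. Acly, Cyp51, Dhcr7, Fdps, Insig2, Mvd, Mvk, Sc4mol, Srebf1 and Srebf2 kept theirs in all of them, some by very little. The log2 fold change of Srebf2 was -0.009 without both arrays of replicate 2. That of Acly was 0.005 without both arrays of replicate 1, and that of Insig2 0.065 with the mean of all probes above background. With 3 arrays a group, 12 of the 22 intervals reach beyond 2-fold on at least 1 side, so a change of 2-fold on that side lies within the error of those genes, and 7 dim genes had no test.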
